A study of Mus musculus with 8 samples.

Results

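Fibroblasts were the cells of interest in a set of brain libraries that had been sorted for CD45.2, a surface protein of leukocytes. Members were chosen by measured values: a barcode needed 500 or more gene UMIs (unique molecular identifiers, which count RNA molecules), 200 or more genes, at most 5% mitochondrial UMIs, 2 or more UMIs of both Col1a2 and Dcn, and none of C1qa or Cd3e. Of 51120 barcodes that passed the quality limits in 8 libraries, 177 (0.346%, exact 95% interval 0.297 to 0.401) were members. Each library was made from cells of one condition, so a treatment had 1 library in each genotype. Several mice went into the WT control and into each APPNL-G-F condition according to the study, but the labels do not tie a hashtag or a cell to a mouse, so mice could not be used as replicates.

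The 4 WT libraries came from C57BL/6J mice and the 4 APPNL-G-F libraries from a knock-in line of App. In that line the amyloid-β sequence is of the human form and the gene bears 3 familial Alzheimer mutations (NL Swedish, G Arctic, F Iberian). All mice were labelled as 16 weeks old. Controls drank water. The acute colitis groups drank 2% dextran sulfate sodium (DSS), which damages the colon lining, for 1 week. Chronic colitis was 3 cycles of 2% DSS for 5 days alternating with water for 5 days. The food allergy groups were sensitized to ovalbumin with alum and then fed ovalbumin. Cells from several samples were stained with up to 4 hashtag antibodies per library, but the labels do not say which animal or sample a hashtag stands for. The brain was taken as parenchyma after perfusion, and cells were enriched on Percoll before sorting.

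Fibroblasts are mesenchymal cells that build and remodel the extracellular matrix. In the brain they lie mainly in the meninges, the membranes around the organ, and along the larger vessels, where they secrete collagens, proteoglycans and chemokines that position immune cells. They do not express CD45, so a CD45 sort is meant to leave them out.

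The label was set against markers that the gate did not use. Members and marker lists were chosen with earlier results of these data known, and Col1a1 is itself a marker of the label. The values below therefore describe the members and are not an independent check. Col1a1, the partner chain of Col1a2 in type I collagen, was found in 171 of 177 members (96.6%), and Col3a1, the chain of type III collagen, in 86.4%. Mgp, an inhibitor of matrix calcification, was found in every member. In T cells, which should lack them, a UMI of Col1a1 was found in 0.202%, of Col3a1 in 0.123% and of Mgp in 0.561% of 8918 cells (median 3151 UMIs). All 10 listed fibroblast markers outside the gate were at least 4-fold higher in members than in the other cells, as the ratio of counts per 1000000 UMIs (CPM) with 10 CPM added to both. Among 4368 genes at 50 CPM or more in either set, 16.3% were that much higher in members and 9.52% that much lower. Markers that define other stromal cells were at 0 UMIs: Myh11, Cnn1 and Des of smooth muscle, Cldn5 and Flt1 of endothelium, Sox10 of Schwann cells, Cdh1 of the arachnoid barrier, Col2a1 of cartilage, Adipoq of marrow stroma, and Bglap and Ibsp of osteoblasts. Other members of these lists were expressed. At least 4-fold higher than in other cells were 4 of 7 marrow stromal genes (Cxcl12, Foxc1, Vcam1 and Lepr, the last in 26.6% of members), 4 of 6 cartilage and tendon genes (Comp, Tnmd, Sox9 and Acan), 2 of 6 arachnoid barrier genes (Cldn11, in 32.8% of members, and Tjp1) and 1 of 7 osteoblast genes (Alpl). Of the pericyte list, Rgs5 and Kcnj8 had 1.69 CPM each in members, while Vtn (296 CPM) and Notch3 (47.4 CPM) were higher than in other cells. The contractile genes Tagln (472 CPM) and Acta2 (151 CPM) and the calcium-binding S100b (194 CPM) were also higher. Endothelial Cdh5 was found in 6.78% of members, Pecam1 in 2.26%, and Kdr and Emcn in 1.13% each. Cdh5, Kdr and Emcn were higher than in other cells and Pecam1 was lower. With 10 CPM added to both, none of the 7 endothelial genes was at least 4-fold higher.

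Cells near the gate thresholds were counted. In 13 members either gate gene stood at exactly 2 UMIs, and their median was 2 for Col1a2, 11 for Dcn and 3 for Col1a1. Just outside, 14 barcodes had 1 UMI of one gene and 2 or more of the other, with medians of 4, 1 and 3.5 for the same genes. Without any UMI of one gate gene but 2 or more of the other were 18 barcodes with Col1a2 alone and 17 with Dcn alone. A further 46 barcodes had 2 or more UMIs of both genes but were left out for C1qa or Cd3e, and Col1a1 was present in 93.5% of them. Ptprc was found in 37.0% of those 46 and in 9.60% of members.

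Ptprc, the gene of CD45 (chr1:138062861-138175708 on the minus strand, GRCm38), was nearly absent from the fibroblasts although the sort had selected its product. It was found in 17 of 177 members (9.60%, exact interval 5.70 to 14.9), against 65.0% of border macrophages, 54.3% of B cells and 79.5% of T cells. Border macrophages were gated as 2 or more C1qa and 1 or more Mrc1 UMIs without Cd3e, B cells by Cd79a and T cells by Cd3e. Members were deeper, with a median of 6007 UMIs (3732 to 7163 by library) against 3693 in the macrophages, so cells were also thinned to 2000 UMIs. Ptprc then stood in 5 of 173 members (2.89%) and in 48.9% of 1160 border macrophages, 4 and 354 shallower cells being left out. All 17 cells with a Ptprc UMI fell in a cluster of 22 members, described further on, that was led by neutrophil and plasma cell genes, and none of the other 155 members had one.

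To show the sequence around a pair of the genes, the 250 bases before the start of Col3a1 and of Cxcl12 are given from RefSeq (GRCm38.p6), 5′ to 3′ on the plus strand. Col3a1 is a fibrillar collagen gene that the gate did not use and Cxcl12 is a chemokine gene that the members expressed. Neither window overlaps an annotated transcript in GENCODE. The windows were searched on both strands for the motifs CCAAT and, without overlap between the motifs, TATAAA. Capitals mark the match, which was a single one of the second motif, 117 bases before the start of Col3a1, in the window at chr1:45311288-45311537. No match was found for Cxcl12, at chr6:117168285-117168534.
Col3a1: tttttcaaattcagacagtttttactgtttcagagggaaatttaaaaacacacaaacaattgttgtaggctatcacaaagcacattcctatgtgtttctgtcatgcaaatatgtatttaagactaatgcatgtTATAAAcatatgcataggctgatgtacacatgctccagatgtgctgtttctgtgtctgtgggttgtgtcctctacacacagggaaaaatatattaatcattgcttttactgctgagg
Cxcl12: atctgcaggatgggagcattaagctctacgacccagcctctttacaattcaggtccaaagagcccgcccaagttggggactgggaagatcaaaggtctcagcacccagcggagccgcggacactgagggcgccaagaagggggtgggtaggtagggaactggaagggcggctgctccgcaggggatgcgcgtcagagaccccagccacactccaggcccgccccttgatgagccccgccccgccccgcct
Of all 32851 promoter windows of this length in the table, 12.4% held TATAAA and 33.8% held CCAAT. Among the 25 leading genes named below, 17 had a window, of which 1 held TATAAA and 3 held CCAAT. These matches are descriptions of letters and not of factor binding.

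The share of fibroblasts was higher in WT libraries than in APPNL-G-F libraries of the same treatment in all 4 pairs. In WT it was 0.961% with acute colitis (47 of 4891 cells), 0.782% with food allergy (48 of 6136), 0.532% with chronic colitis (30 of 5642) and 0.251% without treatment (18 of 7167). In APPNL-G-F it was 0.264% with acute colitis (19 of 7201 cells), 0.116% with food allergy (8 of 6868), 0.0816% with chronic colitis (5 of 6126) and 0.0282% without treatment (2 of 7089). The genotypes overlapped, since APPNL-G-F acute colitis was above the WT control.

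**Figure D1:**
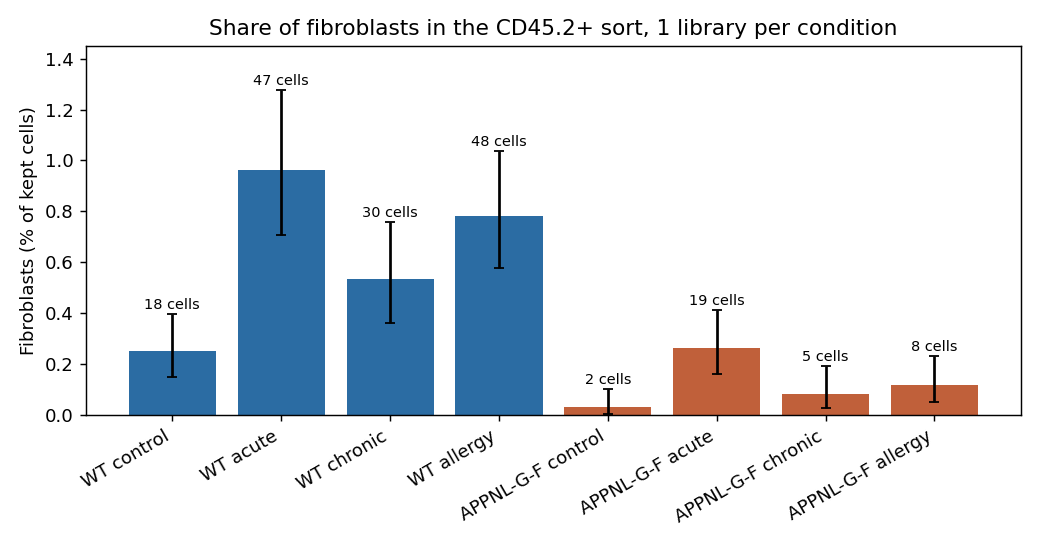
Share of fibroblasts among kept cells in each of the 8 libraries (y axis, percent; blue WT, orange APPNL-G-F), with exact 95% binomial intervals for counting error and the number of members. Among all kept cells acute colitis had the highest share in both genotypes, 0.961% and 0.264%, and the controls the lowest, 0.251% and 0.0282%. The WT order depended on the cells counted. In the 16 hashtag groups set apart further on, WT food allergy was at 1.14% and WT acute colitis at 1.06%.

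Mean shares were 0.632% ± 0.309 in WT and 0.123% ± 0.101 in APPNL-G-F (SD, n = 4 libraries that differ in treatment). The difference of 0.509 percentage points did not pass an exact two-sided permutation test of 4 against 4 libraries (p = 0.0571, smallest possible 0.0286). Without members that held a UMI of Ptprc, Cd79a, Lyz2, S100a8 or Nkg7, 109 were left, the difference was 0.328 points and the test passed (exact p = 0.0286). With sign flips over the 4 treatment pairs the exact p was 0.125, the smallest those pairs allow. The intervals and the counts cover sampling of cells only, and the share depends on how many other cells the sort let through.

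Within each genotype, libraries could be compared only by counting error. The 95% interval of a difference was built from the exact intervals of both shares, by adding their squared distances to the estimates. In WT, acute colitis exceeded the control by 0.710 points (95% interval 0.417 to 1.04), food allergy by 0.531 (0.280 to 0.805) and chronic colitis by 0.281 (0.0548 to 0.529). In APPNL-G-F, acute colitis exceeded the control by 0.236 points (0.107 to 0.386), while the differences for chronic colitis (0.0534, interval -0.0386 to 0.165) and food allergy (0.0883, interval -0.0108 to 0.204) included 0. Among all kept cells the order in both genotypes was acute colitis, food allergy, chronic colitis and control, from high to low. Some neighbours in it had overlapping intervals, and the WT order depended on the cells counted. Cells gated as neutrophils were 2263 of 6136 in WT food allergy and 232 of 4891 in WT acute colitis. Leaving such cells out would place food allergy first in WT. In the 16 hashtag groups set apart further on, WT food allergy (1.14%) was above WT acute colitis (1.06%). WT chronic colitis (0.507%) was there close to the WT control (0.478%). A treatment had 1 library in each genotype, and no test of treatment across the genotypes was run.

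Members were found in some hashtag groups of a library and not in others. A total of 159 members carried exactly 1 hashtag, 13 carried several and 5 none, so that 7.34% of members had several hashtags, against 9.31% of all cells. Among the 27 hashtag groups with 200 or more cells, the summed level of immediate-early genes (such as Fos, Junb and Egr1, which respond fast to stimuli and to tissue dissociation) in the T cells fell into 2 separate ranges. It was 3194 to 6199 CPM in 16 groups, 2 in each library, and 581 to 976 CPM in the other 11. All 159 single-hashtag members lay in the 16 groups (0.570% of 27881 cells), and 14 of the 16 held at least 1. The other 11 groups held none among 16332 cells, and a count of 0 there allows a share of 0.0184% by 3 counts, or 0.0226% as the exact upper limit, for counting error only. Border macrophages made up 0.992% to 10.4% of the cells (median 3.63%) in the 16 groups and 0% to 0.609% (median 0.113%) in the 11. The part of these differences in the fibroblast share was not tested.

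**Figure D2:**
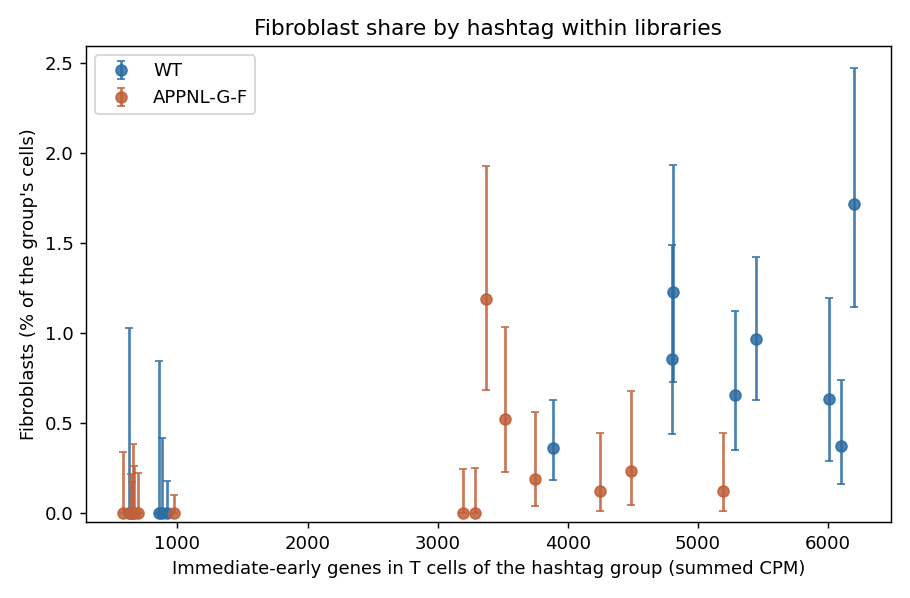
Fibroblast share of each hashtag group of 200 or more cells (y axis, percent, with exact 95% intervals) against the summed CPM of immediate-early genes in the T cells of the same group (x axis; blue WT, orange APPNL-G-F). Groups between 581 and 976 CPM held no member, and the groups with members lay between 3371 and 6199 CPM.

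Counted only in those 16 groups, which were set apart after the data were seen, the genotypes stood closer. WT shares were 1.14% with food allergy, 1.06% with acute colitis, 0.507% with chronic colitis and 0.478% without treatment. APPNL-G-F shares were 0.267%, 0.722%, 0.157% and 0.0641% in the same order, so that the acute colitis library of APPNL-G-F was above 2 of the WT libraries. In WT, food allergy was then above acute colitis, and chronic colitis was close to the control. The mean difference between the genotypes was 0.493 points (exact permutation p = 0.114), and the ratio of the means was 2.63 in place of 5.15 over all cells. The 2 hashtags of a library also differed. In APPNL-G-F acute colitis they held 16 of 1345 cells (1.19%) and 3 of 1285 (0.233%), and in WT food allergy 28 of 1632 (1.72%) and 13 of 1979 (0.657%).

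Hashtag antibodies were counted as a check that members were stained cells, since the gate did not use them. In the 5 libraries with 10 or more members, the median hashtag count per member differed from that of other cells by a mean log2 ratio of -0.14 (from -0.65 in the WT control to 0.48 in APPNL-G-F acute colitis), and the exact two-sided sign-flip p was 0.4375 with 0.0625 the smallest that 5 libraries allow. Against other cells in the members' range of gene UMIs the mean log2 ratio was -0.49 (-0.77 to -0.12), lower in all 5 libraries (exact p = 0.0625). Against border macrophages the mean log2 ratio was -0.79, lower in all 5 libraries (exact p = 0.0625). The exact sign-flip test over 5 libraries cannot reach 0.05, so these ratios are given as sizes.

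Extracellular matrix genes led the profile. The genes with the highest ratio over other cells, after Col1a2 and Dcn were set aside, were Mgp, Igfbp5, Lum, Mfap4, Bgn, Col1a1, Sparc, Gpx3, Serping1 and Fmod, followed by Plpp3, Gas1, Ogn, Cxcl12, Igfbp7, Serpinh1, Fbln1, Pcolce, Gdf10, Apod, Ecrg4, Serpinf1, H19, Col12a1 and Mdk. These levels come from the contrast that the gate defined, so they carry no test. They are CPM of summed UMIs, which count molecules at their 5′ end and are not divided by gene length. Mgp stood at 9978 CPM (Poisson 95% interval 9798 to 10159) in members and 16.3 CPM in other cells. By library it was 12002 CPM in WT acute colitis, 8793 in WT food allergy, 11954 in WT chronic colitis, 7850 in APPNL-G-F acute colitis and 6842 in the WT control. The 25 genes were taken from those at 50 CPM or more in members. They also had to be higher in members in every library with 10 or more members, so agreement among those libraries was fixed by the choice. The smaller libraries entered the choice only through the summed counts. There too each of the 25 was higher in members, except Col12a1, which had no UMI in the 2 members of the APPNL-G-F control.

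**Figure D3:**
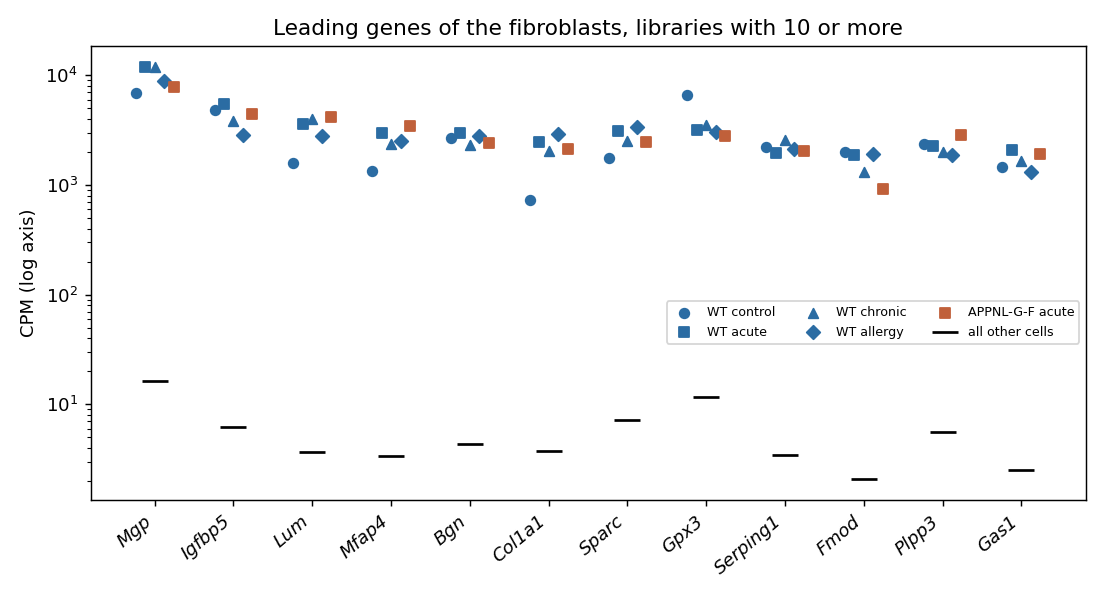
Levels of the 12 leading genes in the fibroblasts of the 5 libraries with 10 or more members (y axis, CPM, log axis; marker shape by treatment, blue WT, orange APPNL-G-F), with all other cells as black bars. The lowest value was 729 CPM (Col1a1 in the WT control), and all 12 stood at or below 16.3 CPM in other cells.

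Among matrix components, 11 of 15 small leucine-rich proteoglycans, which bind collagen and set fibril width, were at least 4-fold higher than in other cells, or 10 of 14 without Dcn, which the gate fixed. Among all 4368 genes at 50 CPM or more in either set, 16.3% were that much higher and 9.52% that much lower. The lists also hold genes below that level. Lum stood at 3118 CPM, Bgn at 2759, Fmod at 1705, Ogn at 1541 and Prelp at 466, and none exceeded 20 CPM in border macrophages. Of 11 fibrillar collagens 6 passed the same ratio (5 of 10 without the gate gene Col1a2), with Col1a1 at 2415 CPM, Col3a1 at 666 and Col5a2 at 171, whereas Col2a1 and Col24a1 had no UMI. Of 28 other collagens 10 passed, led by Col12a1 (944 CPM), Col6a2 (685) and Col6a1 (479). Of 19 genes that process collagen 15 passed, among them the chaperone Serpinh1 (1568 CPM), the procollagen enhancer Pcolce (1415 CPM) and the cross-linking oxidase Loxl1 (487 CPM). Elastic fibre and matricellular genes were at least 4-fold higher for 26 of 34, with Sparc at 2919 CPM, Mfap4 at 2645, Fbln1 at 1433 and Efemp1 at 715. Matrix turnover genes were mixed, with 7 of 14 at least 4-fold higher than in other cells and 2 at least 4-fold lower. The lower ones were Mmp8 (35.5 CPM against 243) and Mmp9 (22.0 CPM against 194), proteases known from neutrophils. Mmp2 (272 CPM), Mmp14 (249 CPM) and the inhibitors Timp2 (927 CPM), Timp3 (208 CPM) and Timp1 (173 CPM) were among the higher genes, while Mmp10 and Timp4 had no UMI.

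**Figure D4:**
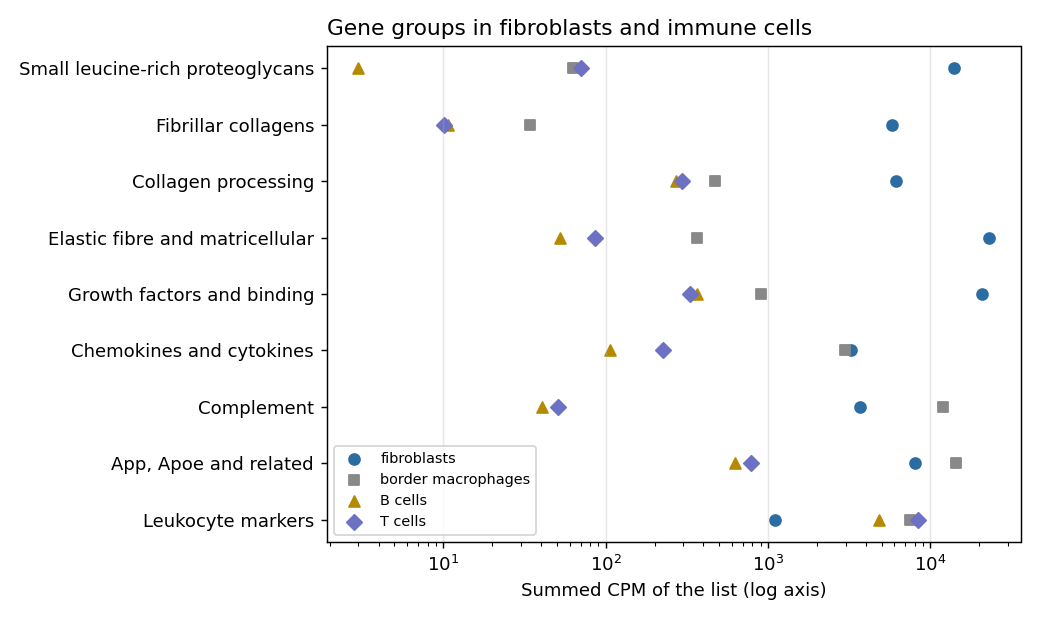
Summed CPM of gene groups (x axis, log axis) over the 8 libraries in fibroblasts, border macrophages, B cells and T cells. Matrix and growth factor groups lay highest in fibroblasts, complement and the group of App, Apoe and related genes highest in border macrophages, and leukocyte markers at 1108 CPM in fibroblasts against 7493 in border macrophages. Without the 22 cells of the cluster led by neutrophil and plasma cell genes, the leukocyte markers summed to 75.1 CPM in fibroblasts. The gates fixed part of the plotted sums. C1qa, a complement gene, was set to 0 in fibroblasts and required in border macrophages, where it stood at 3692 CPM. Of the matrix genes, Dcn (3631 CPM) and Col1a2 (2348 CPM) were required in fibroblasts.

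Among signals to immune cells, Cxcl12 had the highest level. Of 30 chemokines and cytokines, 9 were at least 4-fold higher in members and 6 had no UMI (Ccl21a, Il11, Csf2, Csf3, Lif and Il7). That much higher were 16.3% of all 4368 genes at 50 CPM or more in either set. Cxcl12, which retains leukocytes and their progenitors through CXCR4, stood at 1559 CPM in members and 9.64 in border macrophages, and by library between 1365 CPM (WT chronic colitis) and 2153 CPM (APPNL-G-F acute colitis) where 10 or more members were present. Ccl19, a ligand of CCR7, stood at 512 CPM and the alarmin Il33 at 298 CPM, each in 72.9% of members. Csf1, a growth factor of macrophages, stood at 146 CPM (8.14 in border macrophages) and Cx3cl1 at 127 CPM. Of 40 growth factors and their binding proteins 37 were higher than in other cells and 20 at least 4-fold higher, with Igfbp4 at 6562 CPM, Igfbp5 at 4668, Igf2 at 1045 and the Wnt modulator Sfrp2 at 905. The median of the 4368 genes was itself higher in members, by a log2 ratio of 0.22. On the receiving side 15 of 30 receptors were at least 4-fold higher, among them Egfr (372 CPM) and Fgfr1 (192 CPM). Complement genes were split, with the C1 inhibitor Serping1 at 2157 CPM and the protease C1ra at 237 CPM in members, and C7 and Cfd at 0 UMIs.

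Position was described by genes that differ between meningeal layers and body regions. Among all 4368 genes at 50 CPM or more in either set, 16.3% were at least 4-fold higher in members. Genes listed for the dura were represented by Mgp, Fxyd5 (2457 CPM), Slc47a1 (223 CPM) and Smoc2 (206 CPM), the last in 58.2% of members, whereas Dpp4 was at 5.92 CPM and Tnfaip6 at 1.69 CPM. Leukocytes also expressed part of this list, which summed to 1019 CPM in T cells and 872 in border macrophages. Mgp made up 13.0 and 73.5 CPM of those sums. None of 7 adventitial fibroblast genes was at least 4-fold higher. Slc47a1 is also on the arachnoid list, of which 2 of 5 genes were at least 4-fold higher than in other cells. The other was Aldh1a2, which makes retinoic acid, at 87.2 CPM in 16.4% of members, while Crabp2 was found in 4.52% and Slc6a13 had no UMI. On the pia list 2 of 5 were that much higher, Cxcl12 and Lama2 (87.2 CPM), and Lama1 had no UMI. Listed transcription factors of mesenchyme were led by Foxd1 at 545 CPM in 88.1% of members, Prrx1 at 422 CPM, Msx1 at 289 CPM, Six2 at 275 CPM, Zic1 at 271 CPM in 73.4% and Foxc1 at 218 CPM in 70.6%. Of the 46 listed factors 20 were at least 4-fold higher than in other cells, and 8 had no UMI, among them Tcf21, Foxf1, Meox1, Wt1 and Gata4. Of 39 Hox genes, which mark trunk and limb levels, 36 had no UMI and the other 3 summed to 3.38 CPM. Alpl, a phosphatase of bone-forming cells that other mesenchyme also expresses, stood at 356 CPM, and Sp7 of osteoblast progenitors at 27.1 CPM in 14.1% of members.

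App, the gene that is altered in the APPNL-G-F mice, was expressed by the fibroblasts of both genotypes. It stood at 949 CPM in members (interval 895 to 1007), 119 in other cells and 381 in border macrophages, and was found in 97.2% of members. Apoe, the main lipid carrier of the brain, stood at 5026 CPM in members, 760 in other cells and 13226 in border macrophages. The receptor Lrp1, which clears both, stood at 879 CPM. With 2 to 19 members per APPNL-G-F library, levels were not compared between the genotypes by a test.

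Libraries differed in some genes. The widest ranges between libraries were those of immunoglobulin genes in the WT control and of neutrophil genes such as S100a9 in WT food allergy, which came with the leukocyte genes described further on. The WT control also stood apart in 4 other genes, chosen after their values were seen. Mt1, a metallothionein that binds zinc and copper, stood at 7590 CPM in the WT control (Poisson interval 7064 to 8146), and in the treated WT libraries at 1570 (food allergy), 1544 (chronic colitis) and 1356 (acute colitis). In APPNL-G-F it stood at 1669 CPM with food allergy, 1459 with chronic colitis and 1311 with acute colitis. The APPNL-G-F control was at 37250 CPM, but 1 of its 2 members held 99.6% of those UMIs. The high WT control value was not that of a single cell, since the median over its 18 members was 4355 CPM, against medians of 722 to 1440 CPM in the 6 libraries from treated mice. In the T cells of the WT control Mt1 was at 83.4 CPM, within the range of the other libraries. In barcodes with 10 to 100 UMIs it was highest in the WT control, at 628 CPM against 177 to 575 CPM in the other libraries. Gpx3, a secreted glutathione peroxidase, was also highest in the WT control among the 5 libraries with 10 or more members, at 6635 CPM, with the other 4 at 2808 to 3492 CPM. Col1a1 went the other way, at 729 CPM in the WT control (572 to 915), against 2941 in WT food allergy, 2487 in WT acute colitis, 2140 in APPNL-G-F acute colitis and 2035 in WT chronic colitis. Col3a1 was likewise lowest there, at 305 CPM against 593 to 786 CPM in the other 4. The libraries also differed in the clusters described next. Cluster 3, in which Col1a1 was at 4398 CPM, held 1 of 18 members of the WT control, 11 of 47 of WT acute colitis, 15 of 48 of WT food allergy, 3 of 30 of WT chronic colitis and 2 of 19 of APPNL-G-F acute colitis. Without clusters 3 and 4, a choice made after seeing the data, Col1a1 was at 809 CPM in the WT control and 2130 to 2377 CPM in the other 4 libraries, and Mt1 was at 9009 CPM against 1478 to 2220 CPM. Gpx3 was then at 7566 CPM against 2103 to 4056 CPM, and Col3a1 at 391 CPM against 699 to 778 CPM. Within cluster 1 alone, the nearest of the other 4 libraries had overlapping intervals for Gpx3, Col3a1 and Col1a1, but not for Mt1. Gpx3 was there at 7184 CPM against 6363 in WT chronic colitis, and Col3a1 at 561 CPM against 620 in APPNL-G-F acute colitis. Col1a1 was at 1202 CPM (877 to 1608) against 1906 (1592 to 2263) in WT chronic colitis. Within cluster 2 alone, only Col3a1 overlapped, at 218 CPM against 319 in WT food allergy. These are single libraries, the Poisson intervals cover counting error only, and no test of these levels between libraries was run.

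**Figure D5:**
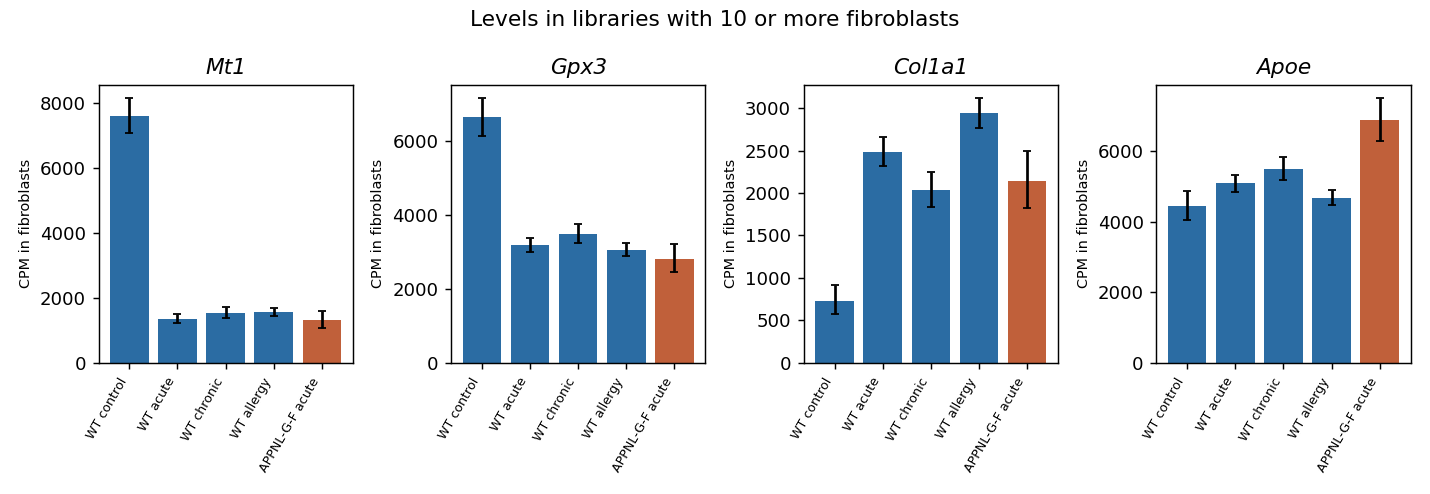
Levels of Mt1, Gpx3, Col1a1 and Apoe in the fibroblasts of the 5 libraries with 10 or more members (y axis, CPM with Poisson 95% intervals for counting error; blue WT, orange APPNL-G-F). Mt1 and Gpx3 were highest and Col1a1 lowest in the WT control.

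Clustering of the members gave 4 groups, described by their leading genes without names, and each came from cells of several libraries. The first, 71 cells, was led by Clec3b, Pi16, Ccn5, Aldh1a2 and Fmo2, with Pi16 at 567 CPM inside and 42.4 outside it. The second, 48 cells, was led by Ttr, Myoc, Ptgds, Cox8b and Mt3, but Ttr came from 1 cell of the APPNL-G-F chronic colitis library and Cox8b also from 1 cell. Myoc, a secreted matrix protein, was found in 20.8% of that group and 5.43% of the others. The third, 36 cells, was led by Chad, Comp, Cilp2, Matn4 and Gpc1. The first 4 encode proteins known from cartilage or tendon matrix, and Gpc1 a cell-surface proteoglycan. Chad was found in 22.2% of that group, and 1 cell held 76.0% of its UMIs in WT acute colitis. Comp was found in 80.6% of that group and 4.96% of the others, and Matn4 in 83.3% and 17.0%. Col2a1 had no UMI in any member, and the tenomodulin gene Tnmd reached 217 CPM over all members.

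The fourth group, 22 cells, was led by Igkv4-59, Ngp, S100a8, Camp and S100a9, genes of plasma cells and neutrophils. Igkv4-59 came from 1 cell of the WT control. The neutrophil genes came from few of the 22 cells, with S100a8 found in 5, Camp in 6, and Ngp and S100a9 in 8 each, whereas Ighm, an immunoglobulin gene, was found in 68.2%. These cells had a median of 10693 UMIs against 4784 to 6555 in the other groups, 12 of the 22 carried several hashtags, and 20 of the 22 had a UMI of Ptprc, Cd79a, Lyz2, S100a8 or Nkg7. They held 23.4% of all member UMIs. Without them the summed level of the 7 leukocyte markers fell from 1108 to 75.1 CPM and that of the 7 neutrophil markers from 12672 to 76.2 CPM. Without them 24 of the 25 leading genes were kept, all 12 fibroblast markers, with the 2 gate genes counted, stayed at least 4-fold higher, and the small leucine-rich proteoglycans stayed at 11 of 15. The share difference between the genotypes was then 0.422 points (exact permutation p = 0.0571).

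Signs of free RNA and of shared barcodes were measured last. Haemoglobin and T cell receptor genes, a set that was not planned, gave 21 UMIs among 1181758 in members. The profile of barcodes with 10 to 100 UMIs, scaled to them, would make up 5.12% of member UMIs (0% to 8.80% by library). The planned set of immune receptor and haemoglobin genes gave 201% in the WT control and 0% to 10.7% in the other libraries. Of the member barcodes 11 (6.21%) were also found in another library, as were 6.13% of all cells, and no barcode was a member in more than 1 library.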

How the data were processed

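Brain cells sorted for CD45.2 were measured by 10x Genomics 5′ single-cell RNA sequencing in 8 libraries. The authors aligned reads and counted UMIs with Cell Ranger (6.1.2 in the submitters' processing notes) against mm10, and the values used are the deposited raw counts per gene and barcode. Barcodes were kept at 500 or more gene UMIs, 200 or more genes and at most 5% mitochondrial UMIs, members were gated as described above, and no doublet caller was run. Exact binomial 95% intervals of shares used the counts of members and of kept barcodes. Poisson 95% intervals of levels used the members' summed UMIs. Groups came from the sample labels. Most genes were named by a rule: the gate genes, Ptprc, the 25 leading genes, up to 6 members of each list with the highest level, members at 0 UMIs that define another cell type, and the 5 leading genes of each cluster. Other genes named, among them further list members at 0 UMIs or at low levels, were chosen after their values were seen. The members and lists were chosen with earlier results of these data known. A planned test of genes by genotype or treatment needed 3 libraries of 10 or more members in each genotype, and APPNL-G-F had 1, so it was not run. Clusters were found with scanpy 1.11.5 (1000 variable genes, 15 components, 15 neighbours, Leiden resolution 0.5), tests with scipy 1.17.1, and the ratio was tested on simulated data. Alternatives in gate, quality limits, denominator, libraries and ambient RNA were tried. Some genes of the lists are not reported here.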

Additional observations from a re-analysis of the deposited data

Results flagged for a closer look

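The spread over libraries was screened in 45 sets (shares, depth, hashtag ratio and the summed level of each gene list in the 4 WT libraries) for a library whose gap to the nearest other exceeded the Dixon limit, and 4 did. Chance alone gives about 1 in 20. The B cell list summed to 9225 CPM in the fibroblasts of the WT control against 11.7 to 435 CPM in the other WT libraries. The list of iron, metal and detoxification genes summed to 34487 CPM in the WT control, with Mt1 at 7590 CPM and Gpx3 at 6635 CPM, and to 16673 to 19142 CPM in the others. The list of astrocyte, neuron and epithelial genes summed to 59.1 CPM in the WT control, all of it Slc1a3, against 10.2 to 11.7 CPM. The erythroid list summed to 2.62 CPM in WT food allergy, a single UMI, and to 0 in the other 3. What lay behind these values was not tested.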

How the results depend on the processing

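The share difference between genotypes kept its direction under every alternative run, with values of 0.328 to 0.636 points. It passed the test at 0.328 points (exact permutation p = 0.0286) when members with a UMI of Ptprc, Cd79a, Lyz2, S100a8 or Nkg7 were left out. Leaving out 1 library in turn gave 0.399 to 0.636 points, and p fell to 0.0286 without the WT control and rose to 0.0857 without the APPNL-G-F control, chronic colitis or food allergy library. The hashtag log2 ratio moved from -0.14 to between -0.30 and -0.01 when 1 library was left out, in a sign-flip test too small to pass. The count of genes 4-fold lower in members rose from 416 to 653 when the planned ambient profile was subtracted, which would have taken 201% of member UMIs in the WT control, where 1 member held plasma cell transcripts. Of 20 genes followed, Ptprc and Cd74 moved by over 1.5 times, Cd74 from 1032 to 93.6 CPM without leukocyte marker UMIs. A Leiden resolution of 1.0 gave 6 clusters in place of 4. The alternatives for genes by genotype and treatment were not run, since those tests were not. APPNL-G-F libraries held 2 to 19 members, which limits the precision of their levels.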
